A study of Homo sapiens with 6 samples.

Results

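The genes described here are the receptors and ligands of the epidermal growth factor (EGF) family and ERRFI1, an intracellular inhibitor of the receptors. They were measured in MCF10A cells, a human mammary epithelial line that does not form tumours. Of 10 listed genes, 9 had at least 1 probe set annotated with their symbol, which is 9 of the 19775 genes and 35 of the 54613 probe sets measured. The listed ligand AREG had no annotated probe set and was not analysed here. The measured genes were the receptors EGFR, ERBB2 and ERBB3, the ligands NRG1, EREG, HBEGF, TGFA and BTC, and the inhibitor ERRFI1, which is neither a receptor nor a ligand. The cells had been transfected with miR-221/222 (called the mimic) or with miR-control (called the control), with 3 biological replicates of each and 1 single-colour array per replicate. All 6 arrays come from this 1 cell line. The dose, the time after transfection, the culture medium and the sequence of the control were not given in the sources used here. Values are log2 intensities per probe set, so a difference of 1 is a 2-fold difference, and every difference is mimic minus control.

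The receptors of this family sit in the cell membrane and pair with each other when a ligand binds. EGFR binds EGF, TGFA, HBEGF, EREG and BTC, ERBB3 binds neuregulins such as NRG1, and ERBB2 has no known ligand and serves as a partner. The ligands are made as membrane-anchored precursors that a protease cuts free, and an active receptor signals through RAS and ERK and through PI3K. MCF10A cells are known for needing EGF to grow, and EGF signalling itself induces several of its ligands and inhibitors. MicroRNAs lower the level or translation of messenger RNAs that pair with their seed, bases 2 to 8. The 3p forms of the mature miR-221 and miR-222 are shown because the mimic is named for these microRNAs. The sample labels do not say which form was used, and a 5p form of miR-222, with another seed, is not shown. The 3p sequences, from RefSeq (GRCh38.p14), are printed 5′ to 3′ with the seed in capitals.
hsa-miR-221-3p: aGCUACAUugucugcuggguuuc
hsa-miR-222-3p: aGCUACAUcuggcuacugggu
Both have the seed GCUACAU, and among the mature microRNAs of the table used these 2 were the only ones with it. These stretches lie on chromosome X, at chrX:45746180-45746202 and chrX:45747036-45747056, both on the minus strand. The array does not measure the mature microRNAs, so the transfection itself was not checked.

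Most of these genes fell in the mimic arrays, and ERRFI1 was the member that rose. All 3 receptors and 4 of the 5 measured ligands fell, NRG1 did not pass the threshold, and ERRFI1 rose 1.58-fold. EREG fell most and was 6.15-fold higher in the control, while the others that fell were 1.30-fold (HBEGF) to 2.08-fold (BTC) higher in the control. Each gene was read at its probe set with the highest mean signal over all 6 arrays, and a call is an adjusted p under 0.05 by limma with Benjamini-Hochberg adjustment over all probe sets. By that rule 7 of 9 member genes were lower and 1 was higher, where 16.3% of all 19775 genes were lower, 14.1% were higher and 30.4% changed either way. The members' median difference was -0.72, against 0.03 over all genes. Counted by probe set, 18 of 35 were lower and 1 was higher, against 13.1% lower, 11.6% higher and 24.8% called in all. All mimic arrays lay below all control arrays for 7 member genes and above them for 1, where this held for 21.9% and 23.7% of all genes. Among the member probe sets these counts were 18 and 2, against 18.2% and 20.9% of all probe sets. The members were chosen with earlier results of these data known, so these counts and shares are a description and carry no test. In these bulk samples, fewer cells of a type and less RNA per cell cannot be told apart.

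**Figure D1:**
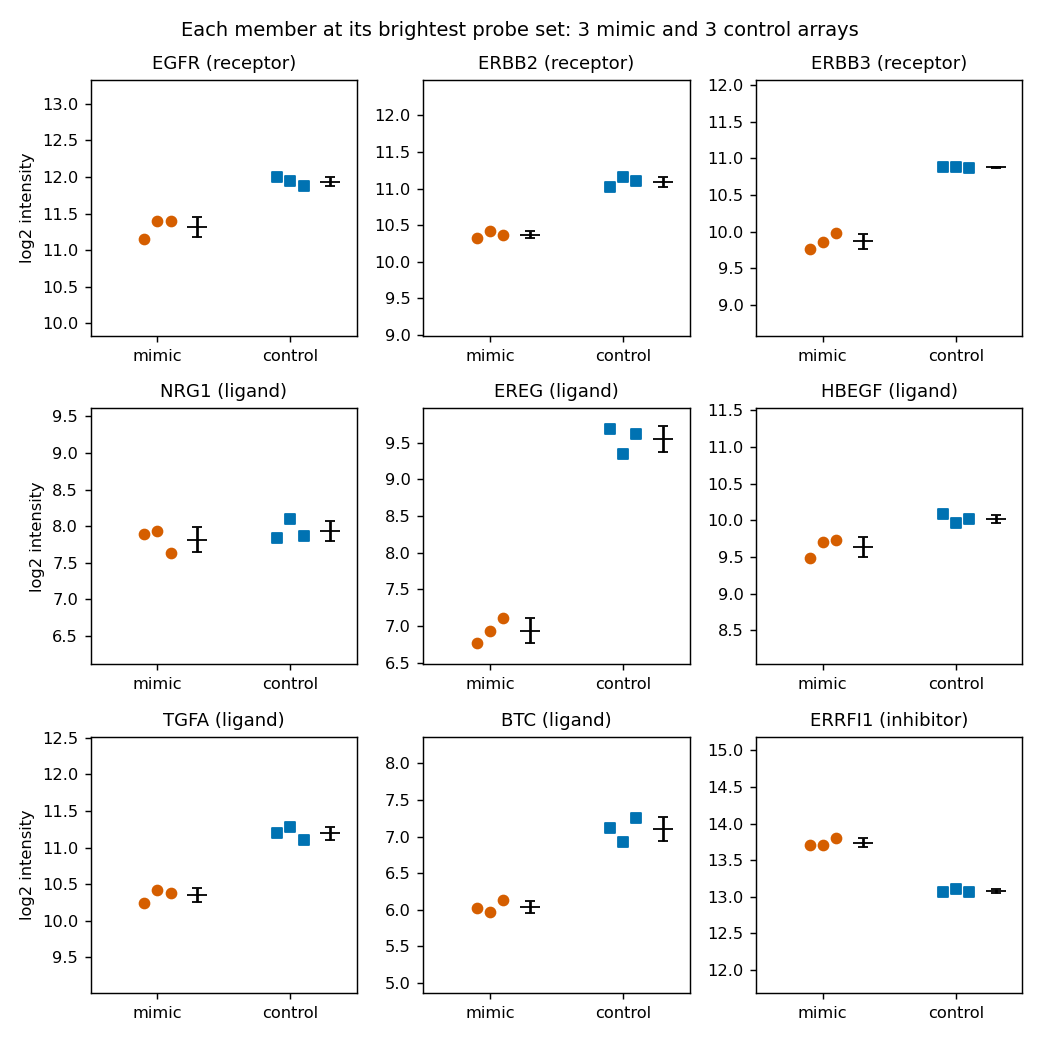
Log2 intensity (vertical axis, a different centre but the same span in each panel) of the 9 measured members at their brightest probe set, with 3 mimic arrays as circles on the left and 3 control arrays as squares on the right of each panel, and the mean with its SD beside each group. The mimic points lie below the control points for 7 genes, overlap with them for NRG1 and lie above them for ERRFI1.

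The arrays had medians between 7.59 and 7.66, and the correlation across probe sets was 0.9953 to 0.998 within a group, against 0.9821 to 0.9858 between groups. Of 8 listed basal mammary markers, 5 were measured, with means between the percentiles 96.4 and 98.6 of all probe sets, and all 5, EGFR among them, fell (median -1.23). All 4 epithelial markers fell as well (median -0.78), and 2 of 4 luminal markers fell (median -0.17). Among markers of other cell types, 1 of 6 fibroblast genes fell and 1 rose (DCN), 1 of 4 endothelial genes fell (KDR), and of 4 measured blood cell genes 1 fell (CD14) and 1 rose (ITGAM). Over all genes 16.3% were lower and 14.1% higher, so 1 gene of such a short list does not stand out. The mean log2 signal of the basal list was 11.44 to 11.56 in the mimic arrays, against 12.73 to 12.81 in the control arrays. That of the fibroblast list was 8.27 to 8.40 in the mimic arrays, against 8.21 to 8.22 in the control arrays. The endothelial list had 7.65 to 7.79 in the mimic arrays, against 8.04 to 8.10 in the control arrays, and the blood cell list 8.06 to 8.14, against 8.26 to 8.28. The median differences were 0.07 for the fibroblast list, 0.03 for the endothelial list and 0.12 for the blood cell list. KDR differed by -1.48 and CD14 by -1.15, while the other measured endothelial and blood cell genes had differences from 0.02 to 0.21. Within the fibroblast list, DCN (mean 13.72 in the mimic, 12.06 in the control) lay at the percentile 98.9 of all probe sets. LUM, the fibroblast gene that fell, lay at the percentile 4.2. Without detection calls, it is not known which of the dimmer markers were absent. The part of these markers in the results below was not tested. The 3′ minus 5′ signal of the GAPDH control probe sets, a sign of RNA integrity, was 0.02 to 0.04 in the mimic arrays, against -0.05 to 0.02 in the control arrays (exact two-sided permutation test, p = 0.1, the smallest that 3 arrays against 3 allow). That of ACTB was 0.33 to 0.39 in the mimic arrays, against 0.29 to 0.36 in the control arrays (p = 0.3 by the same exact test). The part of these 3′ to 5′ values in the results below was not tested.

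Among the receptors, ERBB3, whose own kinase activity is weak and which signals through its partners, fell most. At its brightest probe set (226213_at) ERBB3 gave 9.76, 9.86 and 9.98 in the mimic arrays, against 10.88, 10.89 and 10.87 in the control arrays. All 3 mimic arrays lay below the control arrays, which differed little among themselves. The difference was -1.01 ± 0.07 (SE), 2.01-fold higher in the control (limma adjusted p = 1.1e-06). A second probe set, 202454_s_at, differed by -0.85 (adjusted p = 3.5e-06), with 9.56, 9.71 and 9.72 in the mimic arrays, against 10.56, 10.52 and 10.47 in the control arrays. The ERBB3 probe set 1563253_s_at was also called, at -0.21, and the remaining 2 did not pass, at -0.13 and 0.05. The call at 1563253_s_at was lost when any of mimic replicates 2 and 3 or control replicates 1, 2 and 3 was left out, with adjusted p-values (limma) of 0.0549 to 0.118, and 1563252_at passed, at -0.23, without mimic replicate 1. With every array kept, the 1563253_s_at call was also lost when the values were quantile normalized again (limma adjusted p = 0.0943).

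ERBB2, the partner receptor without a ligand, gave 10.32, 10.41 and 10.37 in the mimic arrays, against 11.02, 11.15 and 11.10 in the control arrays at 216836_s_at. The groups were tight and did not overlap. The difference was -0.72 ± 0.06 (SE), 1.65-fold higher in the control (limma adjusted p = 8.4e-06). At 210930_s_at the ERBB2 difference was -0.85 ± 0.10 (SE), with 7.32, 7.62 and 7.20 in the mimic arrays, against 8.28, 8.18 and 8.24 in the control arrays. The dimmest ERBB2 probe set, 234354_x_at, differed by 0.01, with a 95% interval from -0.13 to 0.16.

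EGFR, the receptor for EGF, fell on 5 of its 9 probe sets. At 201983_s_at it gave 11.15, 11.39 and 11.40 in the mimic arrays, against 12.00, 11.94 and 11.87 in the control arrays. Mimic replicate 1 was the lowest, and all 3 mimic arrays lay below the control arrays. The difference was -0.62 ± 0.08 (SE), 1.54-fold higher in the control (limma adjusted p = 1.3e-04). The other EGFR probe sets called lower were 224999_at (-0.56), 210984_x_at (-0.47), 211607_x_at (-0.42) and 201984_s_at (-0.23). The last of these calls was lost without mimic replicate 2 or 3 or without control replicate 1 or 2, with adjusted p-values (limma) of 0.0572 to 0.0811. With every array kept, it was also lost when the values were quantile normalized again (limma adjusted p = 0.0915). The suffix x_at marks probe sets whose probes may match other transcripts too.

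The 4 EGFR probe sets with the lowest signal did not pass, and 2 of them, 1565483_at and 1565484_x_at, had differences of 0.37 and 0.29 with a wide spread between the mimic arrays. At 1565483_at EGFR gave 9.33, 8.78 and 8.51 in the mimic arrays, against 8.41, 8.52 and 8.59 in the control arrays. Mimic replicate 1 was the highest there, and the groups overlapped. The difference was 0.37 ± 0.16 (SE), with a limma adjusted p of 0.134, but 0.55 and an adjusted p of 0.00804 without mimic replicate 3. The gap between 201983_s_at and 1565483_at, taken on each array, was on average 2.44 in the mimic arrays, against 3.43 in the control arrays. This pair was chosen for its difference, so the gap is a description and carries no test. Which transcripts each probe set reads was not analysed here.

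**Figure D2:**
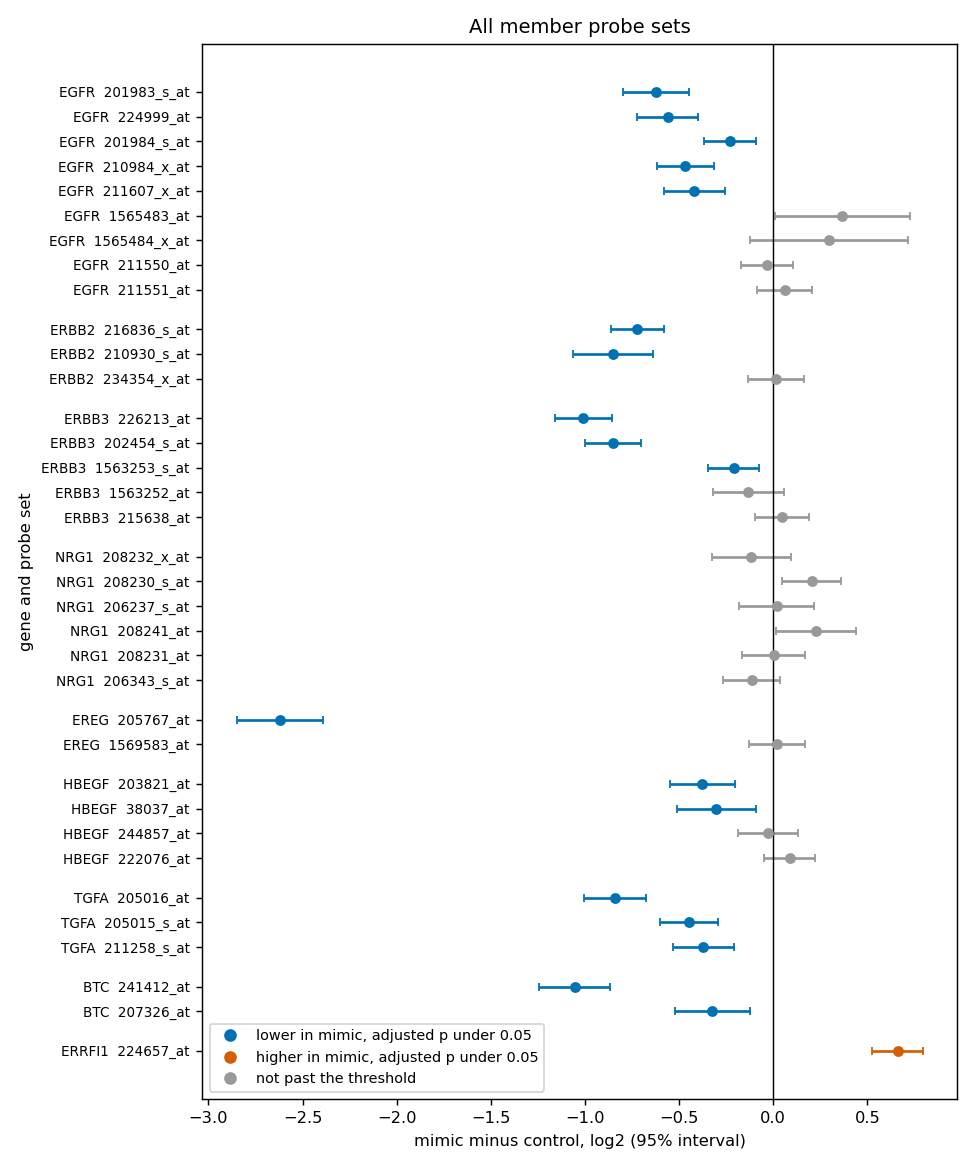
Mimic minus control on the log2 scale (horizontal axis) with its 95% interval from limma for all 35 member probe sets, grouped by gene and running from the brightest probe set of a gene downwards. Of the probe sets, 18 are lower, 1 is higher and 16 did not pass, and the value of EREG at 205767_at, -2.62, lies apart from the other falls, which reach -1.06.

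EREG, epiregulin, a ligand of EGFR and of ERBB4, had the widest gap of the ligands. At 205767_at it gave 6.76, 6.93 and 7.11 in the mimic arrays, against 9.68, 9.35 and 9.62 in the control arrays. No mimic array came within 2 units of a control array. The difference was -2.62 ± 0.10 (SE), 6.15-fold higher in the control (limma adjusted p = 2.0e-08), and 26 of the 19775 genes had a lower value. The other EREG probe set, 1569583_at, gave 7.73, 7.64 and 7.69 in the mimic arrays, against 7.67, 7.57 and 7.75 in the control arrays. These values overlapped, and the difference of 0.02 had a 95% interval from -0.13 to 0.17. The mimic mean at 205767_at (6.93) was below the array medians, and no detection calls were used, so whether EREG was still above background in the mimic arrays is not known.

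BTC, betacellulin, another ligand of EGFR and ERBB4, fell on both of its probe sets, each dim. At 241412_at it gave 6.02, 5.97 and 6.13 in the mimic arrays, against 7.12, 6.93 and 7.26 in the control arrays. The groups were separated, and both means lay under the array medians. The difference was -1.06 ± 0.09 (SE), 2.08-fold higher in the control (limma adjusted p = 4.7e-06). At 207326_at the BTC difference was -0.32 ± 0.09 (SE), a call that was lost without mimic replicate 1 or 2 or without control replicate 3 (adjusted p-values by limma from 0.0568 to 0.0746). As for EREG, whether BTC was above background is not known, here in either group, so its fold is that of the measured intensities only. EREG, AREG and BTC are consecutive protein-coding genes on chromosome 4, after EPGN, which encodes epigen, a further ligand of EGFR. Neither AREG nor EPGN was analysed here.

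TGFA, transforming growth factor alpha, fell on all 3 of its probe sets. At 205016_at it gave 10.24, 10.43 and 10.39 in the mimic arrays, against 11.19, 11.29 and 11.10 in the control arrays. The mimic arrays were all lower, by more than the spread within either group. The difference was -0.84 ± 0.07 (SE), 1.79-fold higher in the control (limma adjusted p = 8.2e-06), and the other TGFA probe sets differed by -0.45 and -0.37. HBEGF, heparin-binding EGF-like growth factor, gave 9.48, 9.70 and 9.74 in the mimic arrays, against 10.08, 9.96 and 10.01 in the control arrays at 203821_at. The gap between the groups was narrower than for the other ligands that fell, although no arrays overlapped. The HBEGF difference was -0.38 ± 0.08 (SE), 1.30-fold higher in the control (limma adjusted p = 0.00403). A second HBEGF probe set, 38037_at, differed by -0.30 and was no longer called without mimic replicate 1 or 2 or without control replicate 1 or 2 (adjusted p-values by limma from 0.0653 to 0.167). Nor was it called with every array kept when the values were quantile normalized again (limma adjusted p = 0.0566). The remaining 2 HBEGF probe sets differed by -0.03 and 0.09 and did not pass. With all 4 averaged, HBEGF was at the edge of the threshold, at -0.15 (adjusted p = 0.0501).

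NRG1, neuregulin 1, which binds ERBB3 and ERBB4 and not EGFR, was called on 0 of 6 probe sets by limma, and 2 of the 6 had an unadjusted p under 0.05. At its brightest probe set, 208232_x_at, NRG1 gave 7.89, 7.93 and 7.63 in the mimic arrays, against 7.84, 8.09 and 7.86 in the control arrays. The arrays overlapped, and the difference was -0.12 with a 95% interval from -0.33 to 0.09. At 208230_s_at NRG1 gave 8.03, 7.90 and 7.92 in the mimic arrays, against 7.72, 7.67 and 7.85 in the control arrays. The mimic arrays were the higher ones there, by 0.21, with a 95% interval from 0.05 to 0.36 and a limma adjusted p of 0.0584. That value passed without control replicate 3 (0.26, adjusted p = 0.0302), with array weights and without the dimmest probe sets. At 208241_at the NRG1 difference was 0.23 (limma adjusted p = 0.119), and it passed with the replicate number as a block (adjusted p = 0.0372). The sign for NRG1 thus depended on the probe set, and all its probe sets lay near or under the array medians, with means over the 6 arrays between the percentiles 5.6 and 55.8 of all probe sets.

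ERRFI1 encodes a protein, also called MIG6, that binds the kinase domain of active EGFR, blocks it and is known as an EGF-induced feedback inhibitor. Its only probe set, 224657_at, gave 13.70, 13.71 and 13.81 in the mimic arrays, against 13.07, 13.10 and 13.07 in the control arrays. All 3 mimic arrays were higher, and the within-group spread was small (SD 0.06 for the mimic, against 0.02 for the control, n = 3 each). The difference was 0.66 ± 0.06 (SE), 1.58-fold higher in the mimic (limma adjusted p = 1.2e-05), and 517 of the 19775 genes had a higher value. With 1 probe set, this value has no second reading on the array.

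The calls of lower level were counted apart for bright and dim probe sets. Of the 25 member probe sets with a mean above the median of all probe sets, 16 were lower and 1 was higher, against 21.9% lower and 16.5% higher among all probe sets of that class. Of the 10 member probe sets at or below that median, 2 were lower, both of BTC, against 4.38% of all such probe sets. Averaging a gene's probe sets gave smaller differences: -1.30 for EREG, -0.69 for BTC, -0.55 for TGFA, -0.43 for ERBB3, -0.52 for ERBB2 and -0.18 for EGFR, each still called.

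**Figure D3:**
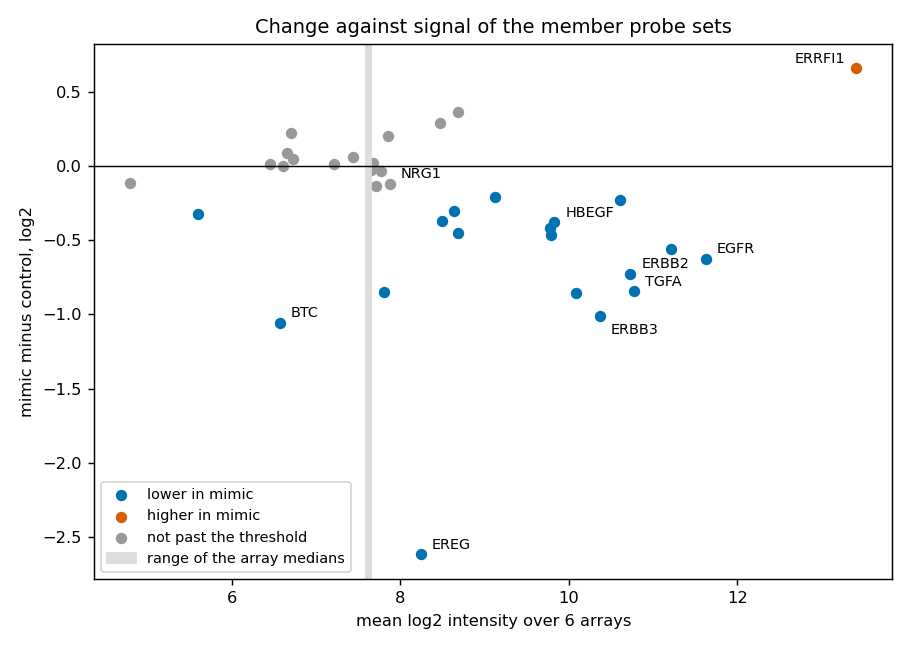
Mimic minus control (vertical axis, log2) against the mean log2 intensity over the 6 arrays (horizontal axis) for the 35 member probe sets, with the gene named at its brightest probe set and a grey band for the range of the array medians, 7.59 to 7.66. Left of the band only the 2 points of BTC are called, and the highest point there is NRG1 at 208241_at (0.23, not called), while most points right of it lie below 0.

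The promoters of EREG, BTC and ERRFI1 are shown because EREG and BTC are the neighbours that fell and ERRFI1 is the member that rose. Each line gives the 250 bases before the gene's start from RefSeq (GRCh38.p14), 5′ to 3′ in the gene's direction, with matches to the searched motifs in capitals.
EREG: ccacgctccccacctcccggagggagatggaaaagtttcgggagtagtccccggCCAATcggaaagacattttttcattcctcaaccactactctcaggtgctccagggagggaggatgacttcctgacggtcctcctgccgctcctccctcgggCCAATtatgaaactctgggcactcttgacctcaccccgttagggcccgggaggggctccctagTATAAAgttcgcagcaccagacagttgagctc
BTC: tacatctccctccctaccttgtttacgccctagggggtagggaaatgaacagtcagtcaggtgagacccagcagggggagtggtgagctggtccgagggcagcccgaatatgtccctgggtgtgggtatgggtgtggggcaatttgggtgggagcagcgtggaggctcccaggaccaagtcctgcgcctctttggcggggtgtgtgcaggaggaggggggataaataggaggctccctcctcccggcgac
ERRFI1: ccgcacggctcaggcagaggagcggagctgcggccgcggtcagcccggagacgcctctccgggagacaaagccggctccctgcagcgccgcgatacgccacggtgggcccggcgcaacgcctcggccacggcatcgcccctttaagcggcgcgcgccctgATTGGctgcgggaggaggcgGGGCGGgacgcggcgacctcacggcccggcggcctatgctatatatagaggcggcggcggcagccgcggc
They lie at chr4:74364895-74365144 (plus strand), chr4:74794524-74794773 (minus strand) and chr1:8026310-8026559 (minus strand). The motifs, searched on both strands, were the TATA box (TATAAA), the CCAAT box (CCAAT), the GC box (GGGCGG), the AP-1 site (TGANTCA) and the CRE (TGACGTCA). Among 35116 promoters of the same length, 10.7% held the TATA box, 32% the CCAAT box, 42.6% the GC box, 6.57% the AP-1 site and 1.65% the CRE. The EREG window held 1 TATA box, with 26 bases between it and the start, 2 CCAAT boxes and no GC box. The ERRFI1 window held 1 CCAAT box, read there as ATTGG on the opposite strand, and 1 GC box, and none of the 5 motifs matched in the BTC window. Of the other members in the promoter table, HBEGF had 5 GC boxes and ERBB2 had 1 CCAAT box and 1 AP-1 site. AREG had 1 TATA box, 1 GC box and 1 CRE. EGFR and TGFA had 2 windows each: 1 of EGFR held 2 GC boxes and the other 2 TATA boxes and 2 AP-1 sites, while 1 of TGFA held 3 GC boxes and the other none of the motifs. These matches are a description of letters, and binding to them was not measured.

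Of the other EGF family genes, 5 of 6 were measured (EGF, NRG2, NRG3, NRG4 and the receptor ERBB4). At their brightest probe sets limma called 0 of them, against 30.4% of all genes, with 0 at an unadjusted p under 0.05. Their differences ran from -0.12 to 0.10. All were dim: EGF, NRG3 and NRG4 lay at the percentiles 8.8, 8.4 and 9.6 of all probe sets, ERBB4 at 44.7 and NRG2 at 49.3. Whether they were above background is not known. Limma called 3037 of the 27306 probe sets at or below the median signal, the class in which these 5 genes were read. Of the 3 NRG2 probe sets, 1 was called lower. Of 5 genes of ligand release, 2 fell and 0 rose, where 16.3% of all genes fell and 14.1% rose. ADAM17, the protease that cuts TGFA, HBEGF and EREG from the membrane, gave 9.50, 9.61 and 9.63 in the mimic arrays, against 10.29, 10.37 and 10.25 in the control arrays. It was 1.65-fold higher in the control (adjusted p = 1.0e-05), on all 3 of its probe sets. TIMP3, an inhibitor of ADAM17, was 1.84-fold higher in the control. ADAM10, which cuts BTC and EGF, had a difference of 0.05 and did not pass, nor did RHBDF1 (difference -0.06) and RHBDF2 (difference -0.21, adjusted p = 0.0541), which carry ADAM17 to the cell surface. RHBDF2 lay at the edge of the threshold: it passed without mimic replicate 3 (-0.25, limma adjusted p = 0.0334) and also in 5 alternatives that kept every array (0.0242 to 0.0452).

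Of 8 receptor adaptors, which link active receptors to RAS and other pathways, 4 fell and 2 rose, with a median of -0.13, against 16.3% lower and 14.1% higher over all genes. NCK1 (-0.66), GRB7 (-0.43) and SHC1 (-0.34) fell, while GRB2 (0.29, on 1 of its 3 probe sets) and the RAS exchange factor SOS2 (0.22, on 2 of its 6) rose. GAB1 and SOS1 had differences of 0.07 each and did not pass. The SOS2 call was lost without mimic replicate 2 or 3 or without control replicate 1 or 3, with adjusted p-values (limma) of 0.0552 to 0.0762. With every array kept, it was also lost when the array medians were subtracted (limma adjusted p = 0.06485).

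Of 14 genes of receptor turnover and inhibition, 4 fell and 2 rose, against 16.3% lower and 14.1% higher over all genes, and the median difference was 0.01. The count of rises is thus near the share over all genes. LRIG1, a membrane protein that promotes the breakdown of EGF receptors, gave 7.55, 7.64 and 7.58 in the mimic arrays, against 8.71, 8.71 and 8.66 in the control arrays. It was 2.15-fold higher in the control (limma adjusted p = 2.1e-07), on 2 of its 4 probe sets, with a difference of -0.29 when all were averaged. Its relative LRIG3 was 1.93-fold higher in the control, and SH3KBP1, an adaptor of receptor uptake, 1.60-fold. STAM2, of the complex that sorts ubiquitin-tagged receptors on endosomes, gave 9.87, 9.87 and 9.95 in the mimic arrays, against 9.02, 8.97 and 8.86 in the control arrays. It was 1.92-fold higher in the mimic, on all 5 of its probe sets. The ubiquitin ligase gene NEDD4 rose by 0.25, a call lost without mimic replicate 2 or 3 or without control replicate 2 or 3 (adjusted p-values by limma from 0.0561 to 0.0648).

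Of 12 genes of the cascade from RAS to ERK, 6 were measured, of which 1 fell and 1 rose (median -0.12). Over all genes 16.3% fell and 14.1% rose, so neither count stands out from the background. KSR1, a scaffold of the cascade, had a difference of -0.73, on 1 of its 4 probe sets and -0.19 when all were averaged. MAPK3, which encodes ERK1, rose by 0.35 at its only probe set, one with the suffix x_at. Of 16 genes that EGF is known to induce, 9 fell and 2 rose, against 16.3% lower and 14.1% higher over all genes, so the count of rises is near the background. Their median was -0.40, against 0.03 over all genes. DUSP6, a phosphatase of ERK, gave 9.18, 9.45 and 9.36 in the mimic arrays, against 11.06, 10.96 and 10.92 in the control arrays. MYC gave 10.86, 10.96 and 10.96 in the mimic arrays, against 12.42, 12.38 and 12.21 in the control arrays. Both genes had all mimic arrays more than 1 unit below the control arrays. DUSP4, another ERK phosphatase, was 1.92-fold higher in the control. DUSP6 was 3.14-fold and MYC 2.66-fold higher in the control (limma adjusted p = 7.6e-08 and 1.3e-07). SPRY2, a feedback inhibitor of receptor signalling, gave 11.24, 11.35 and 11.48 in the mimic arrays, against 10.40, 10.31 and 10.35 in the control arrays. It rose, with a 95% interval of the difference from 0.84 to 1.16, and the phosphatase gene DUSP5 rose by 0.24.

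**Figure D4:**
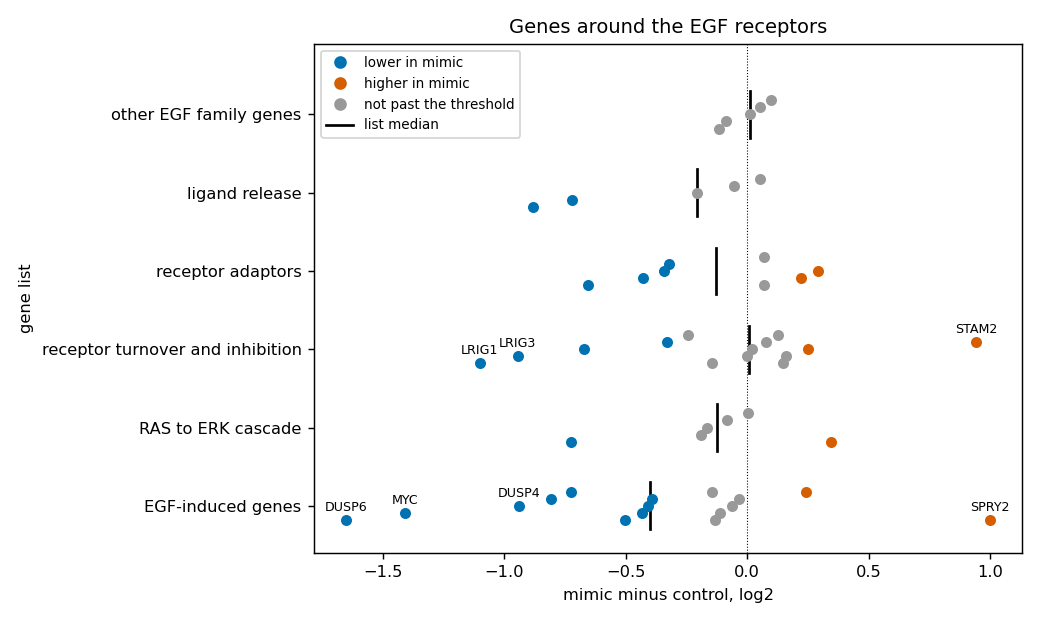
Mimic minus control (horizontal axis, log2) of each measured gene in 6 lists around the EGF receptors, each gene at its brightest probe set, with the list median as a black bar and names where the called difference exceeded 0.9 in size. The list medians run from -0.40 for EGF-induced genes to 0.01, and called genes lie on both sides of 0 in 4 of the 6 lists.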

How the data were processed

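The deposited values are log2 intensities that the authors normalized by robust multi-array averaging (RMA), as the submitters' processing notes name it; the sources used here do not give its version. RMA makes the arrays alike, so a shift in total messenger RNA would not show. That the scale is log2 was judged from the value range. Of 54675 probe sets, 62 array controls were left out. The platform annotation gave 41091 probe sets 1 symbol, 1801 several and 11721 no symbol, and genes were read only at probe sets with 1 symbol. The 2 groups, taken from the labels, were compared with limma 3.58.1 (lmFit, eBayes) in R 4.3.3 over all 6 arrays, adjusted by Benjamini-Hochberg over 54613 probe sets; intervals are 95%. The fit was tested on simulated data. The members and lists were chosen with earlier results of these data known. Named are all members and, per list, up to 3 called genes with the largest rises and falls, with those not called where 3 or fewer. RNA integrity was compared by exact permutation. Probe sets of a gene that differed are described without the planned permutation test, because each pair was picked for its difference. Precision is limited by the number of arrays. Listed genes with no probe set of 1 symbol were not analysed here. The labels call the replicates biological; whether they came from separate cultures was not given. Figures used Python 3.11.15 and matplotlib 3.10.9.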

Additional observations from a re-analysis of the deposited data

How the results depend on the processing

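Of 143 values of the member genes under other settings, 139 had the same direction and call as reported. Those that differed were NRG1, never called, at 0.0368 with all probe sets averaged and 0.21 without x_at probe sets, and HBEGF, which missed the threshold when averaged and a 1.5-fold minimum. BTC had no value without the 40% dimmest probe sets. Among named list genes 357 of 383 values did; the values that changed sign were RHBDF1 (0.0199 after quantile normalization again) and GAB1 (-0.0289 averaged), neither called. With a 1.5-fold minimum, by construction fewer, 3590 probe sets, 1723 genes, 9 member probe sets, 6 EGF-induced genes, 1 adaptor and 1 gene from RAS to ERK were called. From RAS to ERK 4 were called without the dimmest probe sets and 4 with eBayes trend and robust, and 1 without x_at probe sets, where MAPK3 has no value; of the other EGF family genes 1 was called when averaged (NRG2, lower). The cause was not tested. Arrays with the same replicate number had correlations of deviations of -0.11, 0.08 and 0.08, against -0.19 to 0.12 for different numbers. With 3 arrays per group, such values cannot show whether the replicates were paired in the experiment. With the replicate number as a block 8 member genes and 20 member probe sets were called, the added one being NRG1 at 208241_at (higher). Without 1 array at a time, 8 member genes and between 15 and 18 member probe sets were called.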

Other observations

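The protein-coding genes on either side of the ligand cluster on chromosome 4 were looked up after the values of EREG and BTC had been seen. MTHFD2L, a mitochondrial folate enzyme gene that precedes EPGN, gave 7.17, 7.64 and 7.72 in the mimic arrays, against 9.21, 8.97 and 9.02 in the control arrays, a difference of -1.55 ± 0.13 (SE), with 5 of its 8 probe sets called lower by limma (adjusted p = 4.7e-06 at the brightest). PARM1, which follows BTC, did not pass (0.17, adjusted p = 0.115). No coordinated regulation of the region was tested.

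Mimic replicate 1 was the lowest of the 3 mimic arrays at 10 of the 18 member probe sets called lower (55.6%), and at 69.5% of all 7180 probe sets called lower. Without that array, 8 member genes were still called.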
